A study of Mus musculus with 9 samples.

Results

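Samd7, Samd11 and Ankrd33, which encode repressors of transcription in photoreceptors, were followed together with Phc1, Phc2 and Phc3, the Polyhomeotic genes whose proteins link Samd7 and Samd11 to Polycomb repressive complex 1 (PRC1). The 6 genes, of 18193 measured, were chosen by symbol, and all 10 probe sets annotated to a single member are given. A gene with several probe sets is represented by the one with the highest mean over the 9 arrays. The high values of Samd7, Samd11 and Ankrd33 in the rod fraction were known when the genes were chosen, so their differences are a description without a test. The Phc genes were added for their proteins and were tested. Earlier results of these data were also known when the Phc genes and the gene lists below were chosen, so their p-values carry that limit.

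The RNA came from cells of mouse retinae sorted by their GFP fluorescence, on a C57BL/6J-129/Ola background. Mice with the rhoEGFP reporter for rod photoreceptors gave a GFP-positive fraction (rhoGFP+) and a GFP-negative fraction (rhoGFP-) at postnatal day 4 (P4), and mice with the pNestin-GFP reporter for progenitors gave a GFP-positive fraction (nestinGFP+) at postnatal day 0 (P0). There were 3 biological replicates in each group, each pooled from 6 to 8 mice and hybridised to an Affymetrix array, so p-values measure the spread between pools. Values are on the log2 scale of robust multi-array averaging (RMA), in which a difference of 1 is 2-fold and folds of dim probe sets are understated. The rhoGFP- and nestinGFP+ groups differ in reporter line, age and sorted population at the same time, as do rhoGFP+ and nestinGFP+, and these cannot be told apart. In these bulk samples, fewer cells of a type and less RNA per cell cannot be told apart either.

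Rods and cones arise from a common precursor, and rod identity depends on activators such as CRX and NRL and on silencing of genes that belong to cones and other retinal cells. SAMD7 and SAMD11 are photoreceptor proteins with a sterile alpha motif (SAM), a domain that forms polymers, and through the SAM domains of the Polyhomeotic proteins they join PRC1, which ubiquitinates histone H2A at silenced genes. Mouse rods that lack SAMD7 express cone and other non-rod genes, among them the short-wavelength opsin Opn1sw. ANKRD33, also called PANKY, is an ankyrin repeat protein of photoreceptors that represses CRX-dependent transcription.

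RefSeq promoter windows, from 250 bases before to 50 bases after a transcript start on GRCm38.p6, were at hand for 5 of the 6 genes; there was none for Ankrd33. Those of Samd7 (chr3:30746043-30746342, plus strand) and Samd11 (chr4:156255293-156255592, minus strand) are shown because both genes were highest in the rod fraction and CRX binds the core letters TAATCC. Capitals mark TAATCC or its reverse complement GGATTA, 5′ to 3′ on the strand of the gene.
Samd7: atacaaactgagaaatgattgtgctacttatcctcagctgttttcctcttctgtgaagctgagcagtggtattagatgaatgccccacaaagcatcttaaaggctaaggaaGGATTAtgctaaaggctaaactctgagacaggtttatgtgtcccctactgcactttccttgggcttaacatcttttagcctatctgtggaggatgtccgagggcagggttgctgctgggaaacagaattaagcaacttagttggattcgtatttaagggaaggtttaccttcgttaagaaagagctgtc
Samd11: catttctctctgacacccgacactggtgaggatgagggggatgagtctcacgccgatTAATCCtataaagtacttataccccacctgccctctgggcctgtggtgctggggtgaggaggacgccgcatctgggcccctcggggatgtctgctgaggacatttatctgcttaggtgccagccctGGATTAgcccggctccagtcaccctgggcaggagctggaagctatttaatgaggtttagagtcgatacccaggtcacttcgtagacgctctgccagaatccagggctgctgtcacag
The Samd7 window held GGATTA with its first base 139 bases before the start, at a GC content of 43.0%. The Samd11 window, which belongs to a start inside the annotated gene, held TAATCC 193 bases and GGATTA 67 bases before the start, at a GC content of 56.7%. On either strand, TAATCC was present in 7.06% of 32851 mouse promoter windows of this length and occurred at least 2 times in 0.359%. Among the Phc genes, the Phc1 window held GGATTA 232 bases before the start, and these letters were not found in the 3 windows of Phc2 or the window of Phc3. TGCTGA, the core of the site bound by NRL, was found in the Samd11 and Phc1 windows and in 19.5% of all windows. AGGTCA, the core bound by many nuclear receptors, was found in the Samd11 window, in a Phc2 window and in the Phc3 window, against 16.3% of all. These are matches of letters, and binding was not measured.

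All 12 rod markers, such as Gnat1 and Sag, were called higher in rhoGFP+ than in rhoGFP- (3.61% of all genes) and nestinGFP+ (5.06%). Of 9 measured progenitor markers, 8, such as Hes1 and Ccnd1, were called lower in both comparisons, against 7.32% and 10.5% of all genes. The other, the nestin gene Nes, differed by -0.56 and -0.55, and by 0.0012 between rhoGFP- and nestinGFP+ (limma adjusted p = 0.998). A gene was called at a limma adjusted p below 0.05 and a difference of at least 1. Summed on the linear scale, the rod markers came to 48179 to 57287 on the rhoGFP+ arrays, 4190 to 7614 on the rhoGFP- arrays and 1631 to 5157 on the nestinGFP+ arrays. The progenitor markers summed to 4664 to 8339 on rhoGFP+ arrays, 16762.5 to 29624 on rhoGFP- arrays and 31380 to 34499 on nestinGFP+ arrays. Markers of other cell types also differed. Of 7 amacrine markers, 6 were called lower in rhoGFP+ in both comparisons. The other, Slc6a9, was called higher than in nestinGFP+, at 2.01 (limma adjusted p = 0.000805), and was 0.61 higher than in rhoGFP- (limma adjusted p = 0.229). The 7 summed to 1744 to 4082 on rhoGFP+ arrays, 3969 to 9516 on rhoGFP- arrays and 9490 to 12780.5 on nestinGFP+ arrays, highest in the fraction sorted for nestin. Of 6 Müller glia markers 3, and of 6 endothelial markers 3, were called lower in each comparison. Among the Müller glia markers, Rlbp1 was called against rhoGFP- alone and Glul against nestinGFP+ alone. Among 5 measured bipolar markers, Prkca was called higher in both, at 1.51 and 1.44, and Lhx4 lower against rhoGFP-, at -2.37. Tyrobp, of 7 microglia markers, was called higher against nestinGFP+, at 1.72. Calls among 7 ganglion and 5 horizontal cell markers were all lower, 1 and 2 against rhoGFP- and 3 and 1 against nestinGFP+. None of these markers is at 0 on this scale, and the table has no detection calls. Array medians ran from 6.08 to 6.17, arrays correlated at 0.979 to 0.994 within groups and at 0.922 to 0.991 between groups, so these ranges overlap, and the median standard error of a difference was 0.14.

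Samd7 (chr3:30746293-30767174) encodes the SAM protein that recruits PRC1 in rods. Its representing probe set, 1455782_at, read 11.80, 10.96 and 11.49 on rhoGFP+ replicates 1, 2 and 3. It read 10.48, 9.75 and 8.84 on the rhoGFP- arrays and 8.73, 8.14 and 8.02 on the nestinGFP+ arrays. The 3 rhoGFP+ arrays lay above all 6 others, and the rhoGFP- arrays lay above the nestinGFP+ arrays with a gap of 0.11 between the nearest pair. The rhoGFP- replicates were the most spread of the 3 groups. The means were 11.4 ± 0.43, 9.69 ± 0.82 and 8.30 ± 0.38 (SD, n = 3).

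Samd7 was thus 1.72 ± 0.38 (log2, limma SE) higher in rhoGFP+ than in rhoGFP-, or 3.30-fold, and 3.12 ± 0.38 or 8.69-fold higher than in nestinGFP+. The rhoGFP- fraction stood 1.39 ± 0.38 above nestinGFP+, or 2.63-fold. Between same-numbered replicates the rhoGFP+ minus rhoGFP- differences were 1.32, 1.20 and 2.65, and the widest gap was at replicate 3, where the rhoGFP- value was lowest. When each array was left out in turn, this difference ran from 1.30 to 2.12.

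The other Samd7 probe set, 1430817_at, gave larger gaps between the P4 fractions. It read 10.38, 10.39 and 10.34 on the rhoGFP+ arrays, 8.22, 7.24 and 6.76 on the rhoGFP- arrays and 6.95, 6.47 and 6.56 on the nestinGFP+ arrays. The rhoGFP+ arrays had an SD of 0.023 and lay above all others, while rhoGFP- replicate 3 lay below nestinGFP+ replicate 1. The difference was 2.96 ± 0.31 (7.81-fold) from rhoGFP- and 3.71 ± 0.31 (13.1-fold) from nestinGFP+. The step between rhoGFP- and nestinGFP+ was 0.75 ± 0.31 here, against 1.39 on the representing probe set. Both probe sets gave the same order of group means, and the size of the gap between the P4 fractions, 7.81-fold against 3.30-fold, differed between them.

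Samd11 (chr4:156246966-156256011), the SAM-domain relative of Samd7 in the photoreceptor PRC1, kept the same order. Probe set 1425288_at read 13.05, 13.55 and 13.46 on the rhoGFP+ arrays, 11.42, 11.52 and 10.90 on the rhoGFP- arrays and 10.53, 10.46 and 10.54 on the nestinGFP+ arrays. No array overlapped between any pair of groups, and the nestinGFP+ arrays spanned 0.074. The means were 13.4 ± 0.27, 11.3 ± 0.34 and 10.5 ± 0.041 (SD, n = 3).

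Samd11 was 2.07 ± 0.18 (4.20-fold) higher in rhoGFP+ than in rhoGFP- and 2.84 ± 0.18 (7.18-fold) higher than in nestinGFP+, and rhoGFP- stood 0.77 ± 0.18 (1.71-fold) above nestinGFP+. Its second probe set, 1456977_at, was dim, with all 9 values below the median of its array. This probe set read 5.25, 5.78 and 5.39 on rhoGFP+, 4.99, 4.93 and 5.03 on rhoGFP- and 4.99, 4.78 and 4.77 on nestinGFP+. Its differences were 0.49 ± 0.15 from rhoGFP- and 0.62 ± 0.15 from nestinGFP+, with the rhoGFP+ arrays again above all others. With the mean of both probe sets in place of the brighter, the Samd11 differences became 1.28 and 1.73.

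Ankrd33 (chr15:101115744-101120028), the repressor of CRX targets, had a single probe set, 1451636_at, and the widest gap between the P4 fractions among the 6 representing probe sets. It read 11.11, 10.63 and 10.61 on the rhoGFP+ arrays, 7.58, 7.26 and 7.42 on the rhoGFP- arrays and 7.26, 7.05 and 6.85 on the nestinGFP+ arrays. The rhoGFP+ arrays began 3.04 above the highest other array, whereas rhoGFP- replicate 2 and nestinGFP+ replicate 1 both read 7.26. The means were 10.8 ± 0.28, 7.42 ± 0.16 and 7.05 ± 0.20 (SD, n = 3). The difference was 3.36 ± 0.17 (10.3-fold) from rhoGFP- and 3.73 ± 0.17 (13.3-fold) from nestinGFP+. The step between rhoGFP- and nestinGFP+ was 0.37 ± 0.17 (1.29-fold), so 3.36 of the 3.73 above nestinGFP+ lay between the P4 fractions. Same-numbered replicates differed by 3.54, 3.36 and 3.19 between the P4 fractions.

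**Figure D1:**
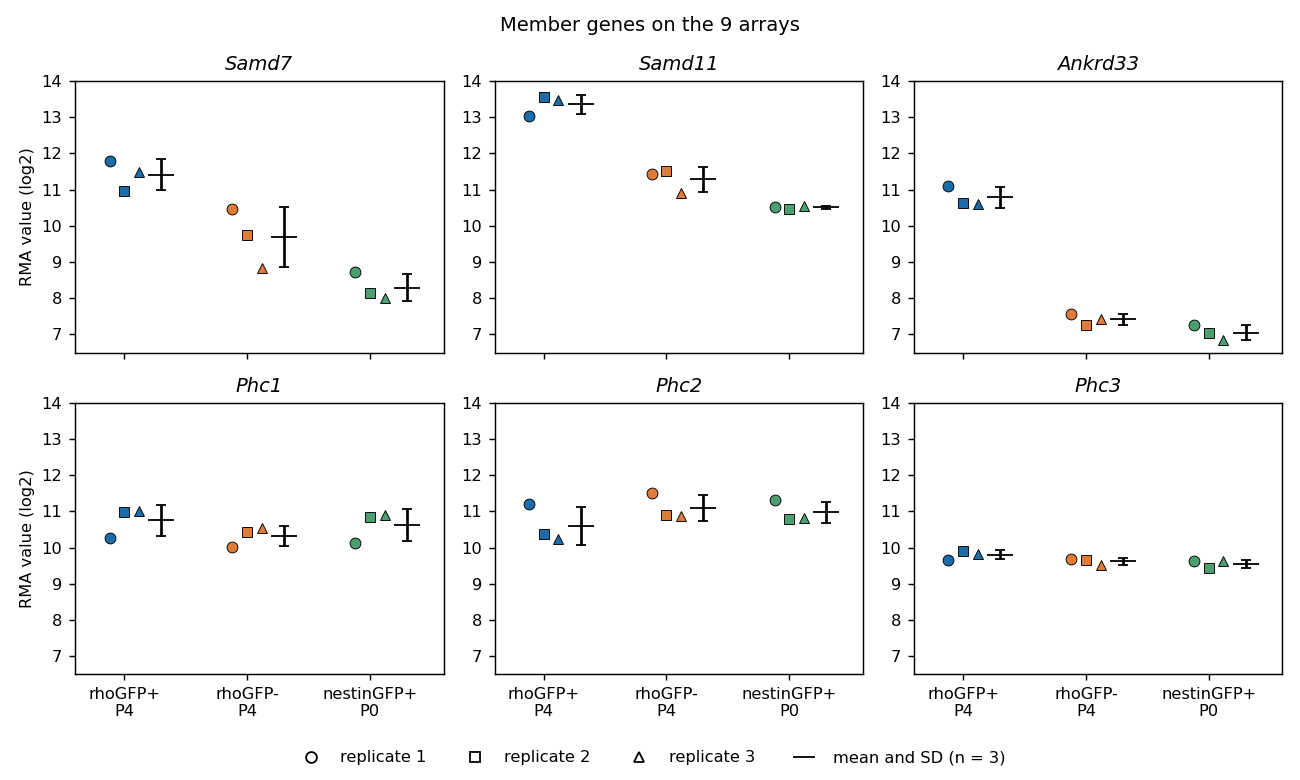
Log2 RMA value (vertical axis) of the representing probe set of each gene on the 9 arrays, by sorted group (horizontal axis), with replicates 1, 2 and 3 as circle, square and triangle and the mean with its SD (n = 3) as a bar beside them. Samd7, Samd11 and Ankrd33 are highest on all 3 rhoGFP+ arrays, Ankrd33 with 10.61 or more against 7.58 or less elsewhere, while the groups overlap for Phc1 and Phc2.

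The 3 repressors thus shared the order rhoGFP+, rhoGFP-, nestinGFP+ in every representing probe set but not the size of the steps. The middle group lay 1.39 above nestinGFP+ for Samd7, 0.77 for Samd11 and 0.37 for Ankrd33, where the SDs of those groups were 0.16 and 0.20. As background, 14.8% of all 18193 genes had the 3 rhoGFP+ arrays above the 6 others, and 4.02% (731 genes) had the full order with no overlap at either step. Called higher were 3.61% of genes against rhoGFP- (656 genes) and 5.06% against nestinGFP+ (921 genes). Nothing is read from these shares for the repressors, since the same differences led to their choice. Samd7 and Ankrd33 read highest on replicate 1 in every group. Replicate 1 also carried the highest signal of the 18S ribosomal RNA control in each group, 12.1 to 13.6 against 9.65 to 10.4 on the 6 other arrays, and its part in the values was not tested. The 3′ minus 5′ signal of actin, which reflects how intact the RNA was, came to 0.85 to 0.97 on rhoGFP+ arrays, 0.64 to 0.68 on rhoGFP- arrays and 0.40 to 0.99 on nestinGFP+ arrays, so it separated the P4 fractions, and its part in their differences was not tested. The rod marker sums given above move with the repressors, and their part in the differences was not tested.

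None of the 3 Phc genes, whose proteins bridge SAMD7 and SAMD11 to PRC1, was called in any comparison. The background of calls in either direction was 10.9% between rhoGFP+ and rhoGFP-, 15.6% between rhoGFP+ and nestinGFP+ and 0.989% between rhoGFP- and nestinGFP+. The last rests on 180 genes and was unstable: leaving out any of its 6 arrays moved the count by over 1.5 times, to between 19 and 559, and the replicate block gave 453.

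Phc1 (chr6:122317731-122340227, probe set 1423212_at) read 10.26, 10.99 and 11.01 on rhoGFP+, 10.02, 10.42 and 10.54 on rhoGFP- and 10.12, 10.84 and 10.91 on nestinGFP+. All groups overlapped, and replicate 1 was the lowest of each group. The difference between the P4 fractions was 0.43 ± 0.26, with a 95% interval of -0.16 to 1.02 (limma adjusted p = 0.312). This interval reaches a 2-fold rise, but it is from the fit without the replicate block. The difference ran from 0.28 without rhoGFP- replicate 1 to 0.68 without rhoGFP+ replicate 1, with limma adjusted p of 0.0891 to 0.602 over the arrays left out. The difference from nestinGFP+ was 0.13, with an interval of -0.46 to 0.72 (limma adjusted p = 0.729). With the replicate number as a block the P4 difference had an SE of 0.10, against 0.26 without it, and a limma adjusted p of 0.0107. Its size was the same 1.35-fold. Same-numbered replicates differed by 0.24, 0.57 and 0.48, so rhoGFP+ was higher in all 3 pairs.

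Phc2 (chr4:128654655-128752881) read 11.20, 10.36 and 10.25 on rhoGFP+, 11.50, 10.90 and 10.87 on rhoGFP- and 11.31, 10.79 and 10.83 on nestinGFP+ by its representing probe set 1437239_x_at. Replicate 1 was the highest of each group, opposite to Phc1. The P4 difference was -0.49 ± 0.27 with a 95% interval of -1.09 to 0.12 (limma adjusted p = 0.26), and the difference from nestinGFP+ was -0.37 with an interval of -0.98 to 0.24 (limma adjusted p = 0.319). Both intervals are from the fit without the replicate block. Same-numbered replicates differed by -0.30, -0.54 and -0.62 between the P4 fractions. With the replicate block the SE of the P4 difference was 0.11, against 0.27 without it, and the limma adjusted p was 0.00764. Leaving out an array moved the P4 difference by over 1.5 times in 3 cases, to -0.78 without rhoGFP+ replicate 1 (limma adjusted p = 0.038), -0.31 without rhoGFP+ replicate 3 (limma adjusted p = 0.569) and -0.28 without rhoGFP- replicate 1 (limma adjusted p = 0.568). The difference from nestinGFP+ had a limma adjusted p of 0.022 with the block, although the numbers did not pair the arrays of that comparison.

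The second Phc2 probe set, 1416048_at, separated the P4 fractions. It read 10.76, 10.49 and 10.31 on rhoGFP+, 11.16, 11.22 and 11.19 on rhoGFP- and 10.73, 11.03 and 11.07 on nestinGFP+. All rhoGFP+ arrays lay below all rhoGFP- arrays, as for 20.3% of all genes, and the latter had an SD of 0.030, while rhoGFP+ replicate 1 lay above nestinGFP+ replicate 1. In a fit of all probe sets the rhoGFP+ fraction differed by -0.67 ± 0.14 from rhoGFP- (limma adjusted p = 0.00938) and by -0.42 from nestinGFP+ (limma adjusted p = 0.0493). Both differences are smaller than 2-fold, so this probe set was not called. Genes at an adjusted p below 0.05 whatever their size made up 24.3% of all between the P4 fractions and 35.8% between rhoGFP+ and nestinGFP+.

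Phc3 (chr3:30899295-30969479, probe set 1455312_at) varied least among the 3. It read 9.66, 9.91 and 9.83 on rhoGFP+, 9.70, 9.65 and 9.52 on rhoGFP- and 9.62, 9.43 and 9.63 on nestinGFP+. The rhoGFP+ arrays lay above the nestinGFP+ arrays and overlapped the rhoGFP- arrays; 24.4% of all genes lay above nestinGFP+ without overlap. The differences were 0.18 ± 0.11, with a 95% interval of -0.07 to 0.43, from rhoGFP- (limma adjusted p = 0.311) and 0.24, with an interval of -0.01 to 0.49, from nestinGFP+ (limma adjusted p = 0.118). Both intervals lie below 2-fold. Its second probe set, 1443651_at, read between 2.21 and 2.76 on all arrays, below the lower quartile of every array, and differed by 0.27 from rhoGFP- (limma adjusted p = 0.128) and by 0.35 from nestinGFP+ (limma adjusted p = 0.0322).

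Between rhoGFP- and nestinGFP+ the differences of the representing probe sets were -0.30 for Phc1, 0.11 for Phc2 and 0.06 for Phc3, with limma adjusted p of 0.619, 0.868 and 0.815. The order of the group means differed between the 3 genes. It ran rhoGFP+, nestinGFP+, rhoGFP- for Phc1, the reverse for Phc2, and rhoGFP+, rhoGFP-, nestinGFP+ for Phc3, and neighbours in each order differed by less than the larger of their SDs, except rhoGFP+ and rhoGFP- for Phc3.

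**Figure D2:**
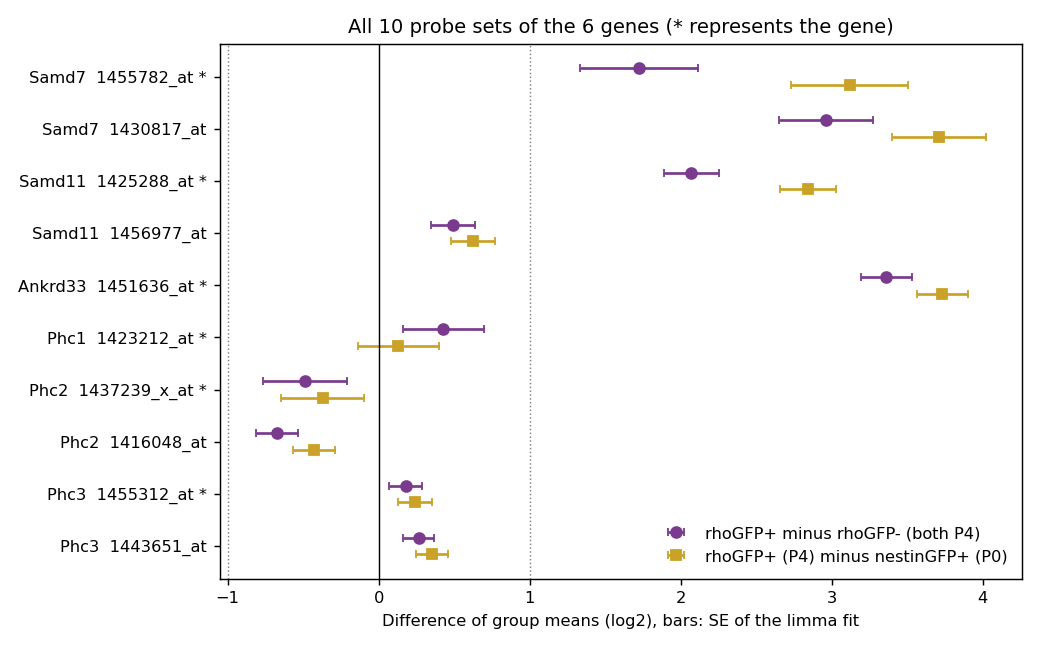
Difference of group means (log2, horizontal axis) for each of the 10 probe sets of the 6 genes (vertical axis, an asterisk marks the representing one), with circles for rhoGFP+ minus rhoGFP-, squares for rhoGFP+ minus nestinGFP+, bars for the limma SE and dotted lines at 2-fold. The probe sets of Samd7, the brighter of Samd11 and that of Ankrd33 lie beyond 1.7 in both comparisons, and those of the Phc genes lie between -0.67 and 0.43.

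Among the other genes of the Polycomb complexes, 3 of 35 were called between the P4 fractions, against 10.9% of all genes. These 35 are the genes of the lists for canonical PRC1, variant PRC1 and PRC2 that had a probe set of their own. Jarid2 was called higher in rhoGFP+ than in rhoGFP-, Auts2 and Epop were called lower, and 13 of the 35 had an adjusted p below 0.05 whatever their size (24.3% of all genes), 7 higher (10.1% of all genes) and 6 lower (14.2%). The median difference of the 35 was -0.02, against 0.01 over all genes. Against nestinGFP+, 2 were called higher and 3 lower, and 23 had an adjusted p below 0.05 (35.8% of all genes), 12 higher (16% of all genes) and 11 lower (19.8%), around a median of 0.05 (0.06 over all genes). The background of lower calls was 7.32% against rhoGFP- and 10.5% against nestinGFP+. Between rhoGFP- and nestinGFP+ limma called 0 of the 35, with 7 at an unadjusted p below 0.05 against 18.1% of all genes.

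In canonical PRC1, the complex that holds the Phc proteins, limma called 0 of 8 measured genes between the P4 fractions, with 4 at an unadjusted p below 0.05 against 33.7% of all genes. Ring1, a ubiquitin ligase of the core, read 9.44, 9.77 and 9.81 on rhoGFP+ and 8.89, 9.10 and 9.04 on rhoGFP-. It was 0.67 ± 0.17 higher (limma adjusted p = 0.0157), short of 2-fold and with a limma adjusted p of up to 0.0622 without rhoGFP+ replicate 2 or 3, and 0.65 higher than in nestinGFP+ (limma adjusted p = 0.0124). Its partner ligase Rnf2 differed by -0.02 (limma adjusted p = 0.941) and 0.05 (limma adjusted p = 0.814) in the same comparisons, and the sign of the first turned under a common median and cyclic loess. Bmi1, the PCGF subunit of the core, differed by -0.36 ± 0.21 (limma adjusted p = 0.289) and -0.17 (limma adjusted p = 0.574). Cbx7, a chromodomain subunit that reads methylated histone H3, was 0.80 ± 0.17 higher than in rhoGFP- (limma adjusted p = 0.00711) and was called against nestinGFP+, at 1.08 (limma adjusted p = 0.000821). That call was lost without nestinGFP+ replicate 1, at 0.92, and, at 0.54, with its probe sets averaged.

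In variant PRC1, which lacks the Phc proteins, Auts2 fell in rhoGFP+. This subunit of a PRC1 form linked to active transcription in neurons read 6.85, 7.29 and 7.27 on rhoGFP+, 8.71, 8.78 and 8.68 on rhoGFP- and 9.19, 9.50 and 9.06 on nestinGFP+. The 3 groups did not overlap, in the order opposite to that of the repressors. In 20.3% of all genes the rhoGFP+ arrays lay below all rhoGFP- arrays, and the share with this full order was not counted. The Auts2 differences, rhoGFP+ minus the other group, were -1.59 ± 0.15 for rhoGFP- (limma adjusted p = 5.51e-05) and -2.11 for nestinGFP+ (limma adjusted p = 6.68e-06). Kdm2b, the CpG-binding subunit, differed by -0.85 ± 0.12 from rhoGFP- (limma adjusted p = 0.000624) and was called against nestinGFP+ at -1.06 (limma adjusted p = 0.000105), a call lost without rhoGFP+ replicate 1, at -0.95.

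In PRC2, the histone H3 methyltransferase complex, Jarid2 rose and Epop fell. Jarid2, an accessory subunit, read 12.26, 11.92 and 11.96 on rhoGFP+, 11.36, 10.85 and 10.33 on rhoGFP- and 10.37, 10.23 and 9.87 on nestinGFP+. It was 1.20 ± 0.24 higher than in rhoGFP- (limma adjusted p = 0.00502) and 1.89 higher than in nestinGFP+ (limma adjusted p = 0.000204). The call between the P4 fractions was lost without rhoGFP- replicate 3, at 0.94, and without _x_at and _s_at probe sets, whose probes can match several transcripts, at 0.80. Epop, an accessory subunit that binds elongin, differed by -1.54 ± 0.39 (limma adjusted p = 0.0173) and -2.00 (limma adjusted p = 0.00291). It was dim in rhoGFP+, at 4.32, 5.52 and 5.17, all below the median of the array and replicate 1 below the lower quartile. It was not called between the P4 fractions without rhoGFP+ replicate 1, rhoGFP- replicate 2 or rhoGFP- replicate 3, where limma adjusted p was 0.0571, 0.0676 and 0.0681. Without rhoGFP- replicate 3 the Polycomb lists held 1 call, and without _x_at and _s_at probe sets, which also leaves Epop unmeasured, 1 call.

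Outside the complexes, 1 of 7 genes that counter Polycomb silencing was called in each rhoGFP+ comparison, against 10.9% and 15.6% of all genes. This was Asxl3, a cofactor of the H2A deubiquitinase BAP1, at -1.35 ± 0.11 from rhoGFP- (limma adjusted p = 2.64e-05) and -2.08 from nestinGFP+ (limma adjusted p = 1.69e-06). Asxl2, Kdm6a and Kdm6b were 0.42, 0.43 and 0.40 higher than in nestinGFP+ (limma adjusted p of 0.0211, 0.0249 and 0.0411), short of 2-fold. Among 6 measured genes of other Polycomb-type SAM proteins, limma called 0 between the P4 fractions (10.9% of all genes), with 3 at an unadjusted p below 0.05 (33.7% of all genes). Against nestinGFP+ (15.6% of all genes) it called Sfmbt2, at -1.76 (limma adjusted p = 0.000536), and L3mbtl3, at -1.08 (limma adjusted p = 0.00365), both readers of methylated lysine. Sfmbt2 was dim in rhoGFP+, below the median on every array and below the lower quartile on replicates 1 and 3. It was at -0.94 when its probe sets were averaged. L3mbtl3 fell short of 2-fold without rhoGFP+ replicate 1, at -0.98, without nestinGFP+ replicate 2, at -0.96, and after a further quantile normalization, at -0.98. Of 8 other measured Samd genes, Samd14 was called lower in both comparisons, at -1.34 ± 0.24 (limma adjusted p = 0.0025) and -1.52 (limma adjusted p = 0.000758). Called lower were 7.32% and 10.5% of all genes. Samd8, a ceramide phosphoethanolamine synthase, was called higher against nestinGFP+ alone (5.06% of all genes), at 1.22 (limma adjusted p = 0.00244), with 0.77 against rhoGFP- (limma adjusted p = 0.0369). In rhoGFP+, 8 of 9 progenitor, 6 of 7 amacrine, 3 of 6 Müller glia and 3 of 6 endothelial markers were called lower in each comparison. Auts2, Epop, Asxl3 and Samd14 were lower there too, and the part of these cell types was not tested. Unlike these genes, which had their highest mean in nestinGFP+, the Müller glia markers had their highest medians on rhoGFP- arrays. Those medians were 10.05 to 10.70, against 8.66 to 9.70 on nestinGFP+ arrays. The median of the 8 Samd genes was -0.12 against rhoGFP- and -0.21 against nestinGFP+, where the medians over all genes were 0.01 and 0.06.

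**Figure D3:**
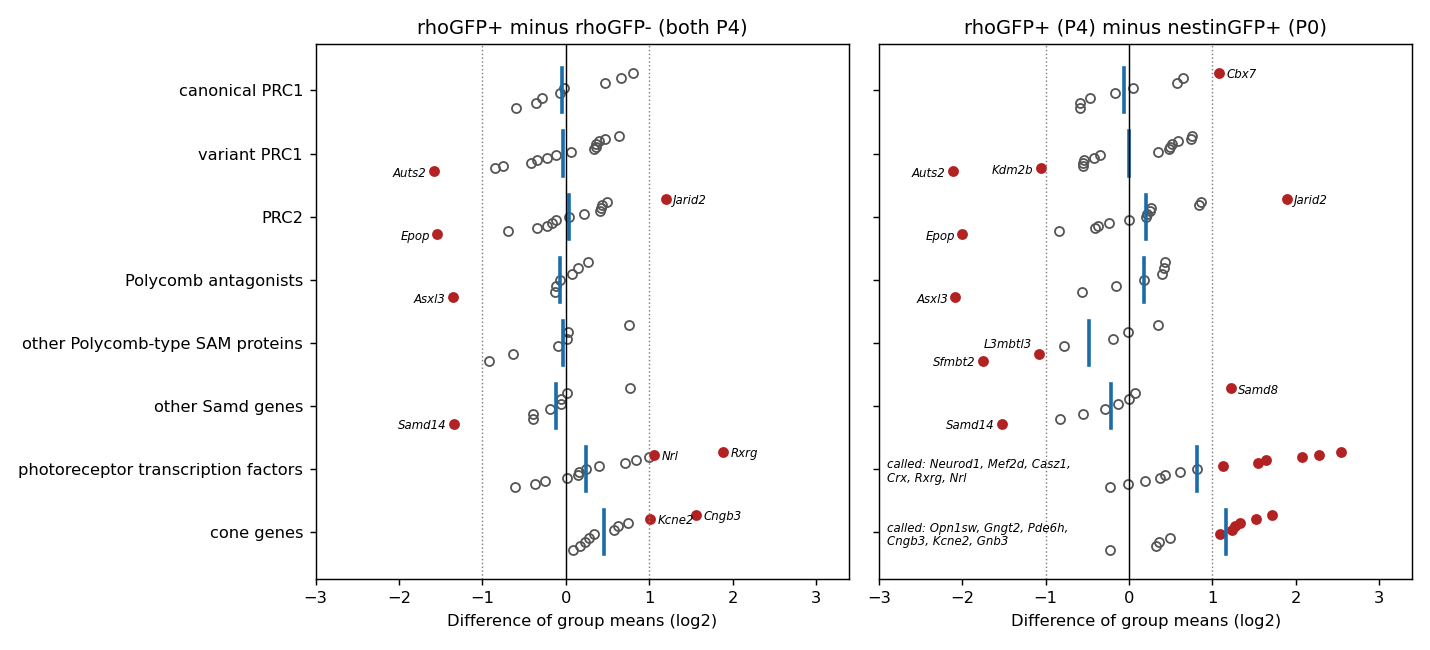
Difference of group means (log2, horizontal axis) for every measured gene of 8 lists (vertical axis), rhoGFP+ minus rhoGFP- on the left and rhoGFP+ minus nestinGFP+ on the right. Filled points are called genes (limma adjusted p below 0.05 and at least 2-fold), open points were not called and blue bars are list medians. The medians of the 3 Polycomb lists lie near 0 in the left panel, with Auts2, Epop and Jarid2 beyond 2-fold.

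The activators and the cone genes to which the repressors relate were read on the same arrays. Crx, the homeobox activator that ANKRD33 counters, read 12.82, 12.66 and 12.66 on rhoGFP+, 12.29, 12.04 and 11.69 on rhoGFP- and 11.25, 10.75 and 9.92 on nestinGFP+. Its difference was 0.71 ± 0.29 from rhoGFP- (limma adjusted p = 0.114) and 2.07 from nestinGFP+ (limma adjusted p = 0.000356). The P4 difference had a limma adjusted p of 0.0158 with the replicate block and 0.0169 with only the 6 arrays compared, at the same size, short of 2-fold. Nrl, the activator that sets rod fate, was called higher in both comparisons, at 1.06 ± 0.27 (limma adjusted p = 0.0185) and 2.54 (limma adjusted p = 7.34e-05). The first call was lost without rhoGFP+ replicate 2, rhoGFP+ replicate 3 or rhoGFP- replicate 3, where limma adjusted p was 0.0603, 0.0549 and 0.0723. Of 13 measured photoreceptor transcription factors, 2 were called higher against rhoGFP- (3.61% of all genes) and 6 against nestinGFP+ (5.06% of all genes). Rxrg, a nuclear receptor known from cones, was among them at 1.89 and 2.28 (limma adjusted p of 4.11e-05 and 8.61e-06).

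Of 10 measured cone genes, 2 were called higher in rhoGFP+ than in rhoGFP- (3.61% of all genes) and 6 than in nestinGFP+ (5.06% of all genes). None was called lower, against 7.32% and 10.5% of all genes. Opn1sw, the short-wavelength opsin, differed by 0.58 ± 0.34 from rhoGFP- (limma adjusted p = 0.289) and was called against nestinGFP+ at 1.09 (limma adjusted p = 0.0317). That call was lost when any of 5 of the 6 arrays compared was left out, all but rhoGFP+ replicate 1, at limma adjusted p of 0.0595 to 0.109, and, at 0.82, with its probe sets averaged. Cngb3, a cone channel subunit, was higher by 1.56 and 1.33 (limma adjusted p of 1.77e-05 and 2.58e-05). Kcne2, a potassium channel subunit, was higher by 1.01 and 1.52 (limma adjusted p of 0.00253 and 0.000131). It was dim, with all 9 values below the median of the array and the nestinGFP+ values below the lower quartile. Against rhoGFP- it fell below 2-fold without rhoGFP+ replicate 1 (0.88), rhoGFP+ replicate 2 (0.97) or rhoGFP- replicate 1 (0.87) and after cyclic loess (0.97). Gnb3, the cone transducin beta subunit, was higher than in nestinGFP+ by 1.71 (limma adjusted p = 0.000683).

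The genes with the most similar pattern were found by centring each gene on its own mean and taking the root mean square (RMS) difference over the 9 arrays, where the median gene stood at 1.35 from Samd7, 1.21 from Samd11 and 1.68 from Ankrd33. Samd11 had the closest neighbours. Tulp1, a photoreceptor protein of ciliary transport, lay 0.0868 away and Pias3, a SUMO ligase of rods, lay 0.103 away. Next came Slc1a7, a glutamate transporter, at 0.160, the phosphatase Ptp4a3 at 0.175 and Cacna2d4, a calcium channel subunit of photoreceptors, at 0.182. Ranked by Pearson correlation instead, 3 of these 5 were also in the top 5.

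The nearest genes to Samd7 were Prcd, a disc protein of photoreceptors, at 0.288, Col17a1, a transmembrane collagen, at 0.307, Ebpl at 0.310, the zinc finger gene Zfp385b at 0.312 and the protocadherin Pcdh15 at 0.313. Those nearest to Ankrd33 were Pde8b, a cyclic AMP phosphodiesterase, at 0.236, Nxnl2, a thioredoxin-like gene of photoreceptors, at 0.270, Elfn1, a synaptic adhesion protein of rods, at 0.276, the neurofilament gene Nefh at 0.289 and the rod transducin gene Gnat1 at 0.297. Neither set of 5 shared a gene with its top 5 by Pearson correlation, so which genes count as nearest depends on the measure. Of the 15 nearest genes, 11 had a promoter window and 2 of these, Prcd and Nxnl2, held TAATCC or GGATTA. Among all 27025 genes with a window, 8.14% held these letters in at least 1 window.

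Among themselves, Samd7 and Samd11 lay 0.52 apart, Samd11 and Ankrd33 0.63, and Samd7 and Ankrd33 0.78. Samd11 ranked 63 in nearness to Samd7 among all genes, and Samd7 ranked 213 in nearness to Samd11. The Phc genes lay between 1.11 and 1.89 from the 3 repressors.

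**Figure D4:**
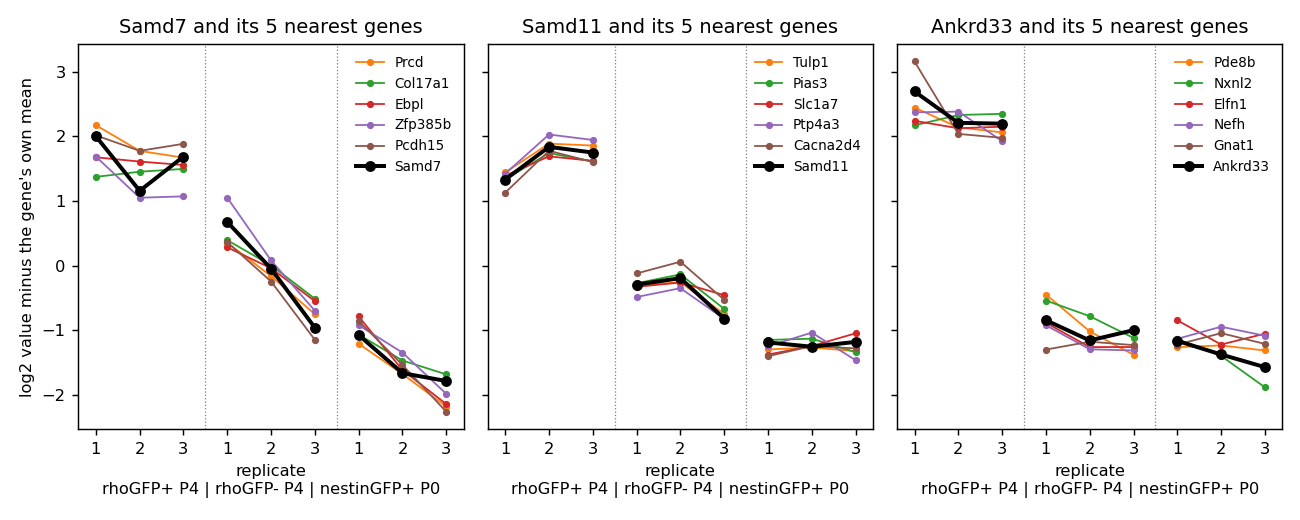
Log2 value minus the mean of the gene over the 9 arrays (vertical axis) for Samd7, Samd11 and Ankrd33 (black) and the 5 genes nearest to each by RMS difference (coloured), by group and replicate (horizontal axis), with lines joining the arrays of a group. The middle group lies between the others for Samd7 and Samd11 and close to nestinGFP+ for Ankrd33, where it stood 0.37 above it.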

How the data were processed

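The table deposited by the authors holds log2 values of 45101 Affymetrix probe sets on 9 arrays, made with RMA, as the submitters' processing notes state, in a version not given in the sources used here. Per the labels' protocols, 200 ng of total RNA was amplified to biotinylated cRNA. RMA quantile-normalizes arrays and compresses low signals. GEO's platform annotation gave 34945 probe sets a single symbol, 932 several and 9160 none, with 64 controls. A gene was represented by its probe set with the highest mean, giving 18193 genes. All 9 arrays entered a limma 3.58.1 fit in R 4.3.3 (lmFit, eBayes, two-sided) with 3 group means. The p-values were adjusted by Benjamini-Hochberg over all genes, and a call needed an adjusted p below 0.05 and a difference of at least 1. This fit has no term for the replicate number, so its p-values and intervals leave out the pairing of arrays described below. Results with the replicate block are named as such. The steps were tested on simulated data. The number of arrays limits precision, and no scan batch was recorded in the labels.

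The 6 genes and the 8 gene lists were chosen with earlier results of these data known. Named besides the members were Ring1, Rnf2, Bmi1, Crx, Nrl and Opn1sw, the 2 largest called differences each way of each list in each rhoGFP+ comparison, and the 5 nearest genes in pattern, passing over clone names. The labels give the groups the same replicate numbers without saying that a number marks a shared pool. From the data, deviations from group means correlated at 0.451 to 0.624 between same-numbered arrays of the P4 fractions, against -0.488 to 0.074 between other arrays. Between rhoGFP- and nestinGFP+ they correlated at 0.155 to 0.543, against -0.394 to 0.221. Both comparisons were taken as paired because every same-numbered value was above 0.1. The ranges of the second overlap, so its pairing is uncertain. Between rhoGFP+ and nestinGFP+ the values were -0.0081 to 0.52, against -0.453 to 0.387, and these were not taken as paired. In both nestinGFP+ comparisons the highest same-numbered value was at replicate 1. Alternatives were 3 other normalizations, the mean of a gene's probe sets, leaving out _x_at and _s_at probe sets or genes below the 40th percentile, a fit of 6 arrays, trend and robust eBayes, the replicate block, no minimum difference, Pearson correlation for likeness, and leaving out each array. Promoters and loci are from RefSeq (GRCm38.p6); figures were drawn with matplotlib 3.10.9.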

Additional observations from a re-analysis of the deposited data

How the results depend on the processing

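With 3 arrays a group, 1 array could decide a call, and values near the lower end of the signal understate folds. Of the alternatives that kept all arrays, none turned the sign of a difference of the 6 genes. Samd11 moved with the mean of its probe sets, to 1.28 against rhoGFP-, 1.73 against nestinGFP+ and 0.45 between rhoGFP- and nestinGFP+, since this averages in the dim probe set. With no minimum difference the genes called were 4417, 6508 and 370 in these 3 comparisons, and the Polycomb genes called 13, 23 and 1. Without _x_at and _s_at probe sets the Polycomb lists held 1 call between the P4 fractions. Between rhoGFP- and nestinGFP+, only the 6 arrays compared gave 28 genes called. The sign of Rnf2 between the P4 fractions turned to 0.0045 (common median), 0.023 (cyclic loess) and 0.20 (mean of probe sets), and that of Ring1 between rhoGFP- and nestinGFP+ to 0.0060 (common median) and 0.030 (quantile normalization again); limma called neither, and the cause was not tested.

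Leaving out each array in turn gave 1818 to 2146, 2760 to 2974 and 19 to 559 genes called, and 1 to 3, 4 to 6 and 0 Polycomb genes. Over these fits Samd7 ran from 1.30 to 2.12 and from 2.93 to 3.35 in the rhoGFP+ comparisons, Samd11 from 1.88 to 2.23 and from 2.74 to 3.00, and Ankrd33 from 3.20 to 3.45 and from 3.57 to 3.84. Signs turned for Phc1 against nestinGFP+ (-0.12 to 0.38) and, between rhoGFP- and nestinGFP+, for Phc2 (-0.091 to 0.28), Phc3 (-0.0014 to 0.11), Bmi1 (-0.032 to 0.37), Ring1 (-0.18 to 0.13), Rnf2 (-0.012 to 0.13) and L3mbtl3 (-0.36 to 0.059). They also turned for Rnf2 in both rhoGFP+ comparisons (-0.14 to 0.080 and -0.071 to 0.15), for Bmi1 against nestinGFP+ (-0.39 to 0.0048) and for Elfn1 between rhoGFP- and nestinGFP+ (-0.22 to 0.0020).

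With the replicate block, 122 of 129 results kept their direction and side of the threshold. The genes called were 2046 and 2853 in the rhoGFP+ comparisons and 453 between rhoGFP- and nestinGFP+, and the Polycomb genes 3, 5 and 0. The numbers did not pair the arrays of rhoGFP+ and nestinGFP+.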

Other observations

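Other Polycomb genes outside the naming rule also differed, and were chosen here after their values were seen. The catalytic subunits of PRC2 differed in opposite directions, Ezh1 past an adjusted p of 0.05 against nestinGFP+ alone. Ezh2, the form of dividing cells, differed by -0.69 in rhoGFP+ against rhoGFP- (limma adjusted p = 0.00256) and -0.84 against nestinGFP+ (limma adjusted p = 0.000473). All its rhoGFP+ arrays were lowest, at 10.65 to 10.86 against 11.36 to 11.78, and 20.3% of all genes lay below rhoGFP- without overlap. Ezh1, the form of resting cells, differed by 0.49 (limma adjusted p = 0.0933) and 0.86 (limma adjusted p = 0.00531). Pcgf3, a variant PRC1 subunit, differed by -0.76 (limma adjusted p = 0.000589) and -0.54 (limma adjusted p = 0.00296). Fbrs, a partner in the AUTS2 form of PRC1, differed by 0.63 (limma adjusted p = 0.00243) and 0.75 (limma adjusted p = 0.000581), while Auts2 itself differed by -1.59 and -2.11. Casz1, a zinc finger factor of rod development, was 1.00 higher than in rhoGFP-, just under the 2-fold threshold (limma adjusted p = 9.26e-05), and 1.65 higher than in nestinGFP+ (limma adjusted p = 3.31e-06). Whether these pairs of differences are unequal was not tested.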
